A study of Mus musculus with 16 samples.

Results

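The genes of the mitochondrial ribosomal proteins were taken as all symbols of the count table that start with Mrpl or Mrps followed by a digit. There were 76 of them among 23337 symbols, 47 named for the large and 29 named for the small subunit. Blood neutrophils of 8 week old C57/Bl6 mice were enriched by negative selection with magnetic beads and measured by bulk RNA-Seq in 16 libraries. LTβRΔN mice carry the floxed allele Ltbr fl/fl and Mrp8-Cre, whose Mrp8 promoter drives Cre in neutrophils. Their control littermates carry Ltbr fl/fl without Cre, so the floxed allele is shared by all groups. Of the control libraries 3 are labelled unstimulated and 4 stimulated, and of the LTβRΔN libraries 4 and 5. The protocol gives a culture of 2 h in which TNF and GM-CSF were each used at 100 ng/ml and IL-6 was used at 50 ng/ml. LIGHT, a ligand of LTβR, was added in soluble form at 500 ng/ml or left out. The labels do not tell which libraries received LIGHT, and the design text names the cytokines as the treatment, so the groups are called here by their labels, stimulated and unstimulated. No label names the animal behind a library, so p-values measure the spread between libraries, which may be technical in part.

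Mitochondrial ribosomes translate the few proteins encoded by mitochondrial DNA, all of them subunits of the respiratory chain or of ATP synthase. Their RNAs come from the mitochondrial genome, but all of their proteins are encoded in the nucleus, made in the cytosol and imported. Some of these proteins descend from bacterial ribosomal proteins and others are found only in mitochondria. Neutrophils hold few mitochondria and obtain much of their ATP from glycolysis.

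A single member, Mrpl16, passed the test in any comparison, and it did so with the treatment label in both genotypes. It had 0 to 4 counts in unstimulated libraries and entered the test only through the stimulated ones, where it is higher. No member passed it between genotypes. The counts behind the members were low. Of the 76 members, 69 passed the filter on low counts, and 27 had at least 10 counts in every library. All members together had 155004 of 98029304 counts, and 37.8% of these were from Mrpl33.

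Library totals ranged from 1094335 to 11932653 counts with a median of 6429522. In the libraries 34 to 66 members had 10 or more counts, and 5 to 21 members had none. Ltbr, the deleted gene, was at 93.6 to 154 CPM (counts relative to the library total, scaled by TMM factors) in unstimulated and at 84.6 to 148 CPM in stimulated control libraries. It was at 3.62 to 10.4 CPM in unstimulated and 0.705 to 18.1 CPM in stimulated LTβRΔN libraries. The treatment label was checked on Cish, Socs3 and Nfkbia, targets of GM-CSF, IL-6 and TNF signaling, and all 3 rose with it in both genotypes, with log2 fold changes of 3.59 to 8.60 and adjusted p of at most 4.31e-10. All 7 measured neutrophil markers of a list of 8 were present in each group, with summed levels of 45023 to 75511 CPM. Of the other cell type lists, the summed levels of 6 T cell markers were at most 16.4 CPM. Within a group 3 or 4 of them were at 0, Cd3e in every group, while Cd3d and Cd3g had counts in every group. The 6 monocyte markers summed to 341 to 561 CPM, with overlap between all groups, and 1 to 4 of them were at 0 throughout a group. The 6 platelet markers summed to 206 CPM and the 9 immature neutrophil markers to 770 CPM in stimulated control replicate 3, both the highest of all libraries. Of the immature neutrophil markers, Mpo, Elane, Ctsg and Top2a were at 0 in all stimulated control libraries, so the sum there came from the other markers of the list.

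**Figure D1:**
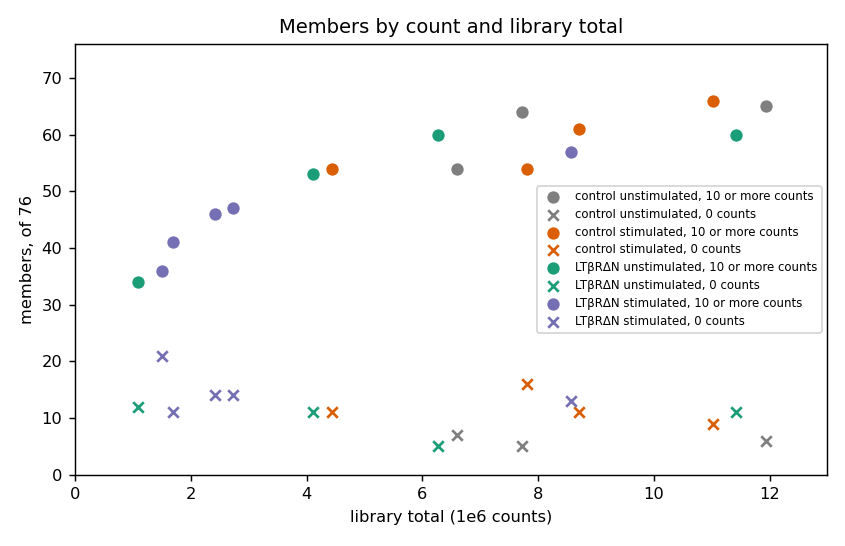
The vertical axis gives the number of members out of 76 with 10 or more counts (circles) or with 0 counts (crosses) in each of 16 libraries, and the horizontal axis the library total, in units of 1e6 counts; colors mark the 4 groups. The library with the lowest total had 34 members with 10 or more counts, and the highest number, 66, was in stimulated control replicate 3.

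Promoter windows of RefSeq on GRCm38.p6, from 250 bases before to 50 bases after the annotated start, were found for 67 members. They are shown for Mrpl16, the member that passed the test, for Mrpl33, the member with the highest level, and for Mrps24. Mrps24 is one of the highest of the small subunit, and its window has a YY1 match 36 bases after the annotated start. Capitals mark matches to the motifs listed after them, on either strand.
Mrpl16: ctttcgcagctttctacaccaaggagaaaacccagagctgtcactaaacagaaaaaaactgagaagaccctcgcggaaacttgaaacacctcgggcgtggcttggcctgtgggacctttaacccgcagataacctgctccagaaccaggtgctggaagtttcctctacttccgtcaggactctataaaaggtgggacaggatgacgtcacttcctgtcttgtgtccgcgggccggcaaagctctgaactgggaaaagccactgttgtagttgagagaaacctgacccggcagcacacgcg
Mrpl33: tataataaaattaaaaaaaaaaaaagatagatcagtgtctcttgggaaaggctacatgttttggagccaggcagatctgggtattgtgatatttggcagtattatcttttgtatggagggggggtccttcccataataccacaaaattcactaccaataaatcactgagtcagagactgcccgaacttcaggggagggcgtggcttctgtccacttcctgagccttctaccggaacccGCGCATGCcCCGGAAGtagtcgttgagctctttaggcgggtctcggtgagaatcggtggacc
Mrps24: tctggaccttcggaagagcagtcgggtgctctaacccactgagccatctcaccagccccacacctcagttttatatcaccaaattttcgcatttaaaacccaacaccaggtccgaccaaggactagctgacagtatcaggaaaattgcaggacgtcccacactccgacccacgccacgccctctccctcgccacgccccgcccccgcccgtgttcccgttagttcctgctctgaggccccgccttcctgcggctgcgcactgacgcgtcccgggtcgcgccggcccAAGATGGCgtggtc
The Mrpl16 window is chr19:11770165-11770464 on the plus strand, that of Mrpl33 chr5:31613701-31614000 on the plus strand, and that of Mrps24 chr11:5707652-5707951 on the minus strand. Motifs were searched as fixed letters on both strands, and overlapping matches to different motifs were counted under each. The ETS letters CCGGAAG were in 22 member windows (32.8%), against 9.11% of all 27025 windows and 21.2% of the 7456 windows of tested genes. The NRF1 letters GCGCATGC were in 8 (11.9%), against 2.80% of all and 5.85% of tested genes. The YY1 letters AAGATGGC were in 12 (17.9%), against 2.87% of all and 5.46% of tested genes. ETS family factors, NRF1 and YY1 are known to act on promoters of nuclear genes for mitochondrial proteins. The STAT letters TTCNNNGAA were in 6 (8.96%, against 8.43% of all windows and 6.99% of tested genes), and a κB motif was in 5 (7.46%, against 8.19% of all windows and 10.2% of tested genes). The Mrpl33 window held an NRF1 and an ETS match near the annotated start, and the Mrps24 window a YY1 match. None of the 5 motifs was in 28 member windows, that of Mrpl16 among them.

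Levels of different members were compared as CPM per kilobase of the principal coding transcript of each gene, averaged over all 16 libraries. Mrpl33, a large subunit protein of bacterial descent, stood at 1243 ± 211 (SD, n = 16) CPM per kilobase and was above all other members in every library. Its lead depended on the length used: per kilobase of all annotated exons it stood at 81.1, beside 75.0 for Mrps21 and 43.8 for Mrpl10. Its counts ranged from 445 to 8903 per library. The gene lies on chromosome 5 from 31596935 to 31664384 (+ strand, GRCm38). Over all its annotated exons, 7326 bases, 2.95% of the 50-base stretches also occur in other annotated genes. Its exons share 261 bases with Gm43809 on the same strand. How many of these lie in the principal transcript of 478 bases was not examined, so its counts may be less certain than the 2.95% implies. Mrpl33 took 29.9% to 43.4% of the member counts of a library.

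The next large subunit members were Mrpl20 at 69.9 ± 14.04, Mrpl14 at 58.7 ± 15.3 and Mrpl43 at 47.0 ± 10.4 CPM per kilobase (SD, n = 16). Mrpl20 was above Mrpl14 in 12 and Mrpl14 above Mrpl43 in 13 of 16 libraries, so the order of these neighbors was not the same in every library. Mrpl20 and Mrpl14 are of bacterial descent, and Mrpl43 is found only in mitochondria. In the small subunit, Mrps21 led with 113.6 ± 27.3, followed by Mrps24 with 69.0 ± 16.95, Mrps18c with 39.3 ± 14.1 and Mrps15 with 35.3 ± 7.39 CPM per kilobase (SD, n = 16). All 4 belong to the bacterial-like core. Mrps21 was above Mrps24 in 15 libraries and Mrps24 above Mrps18c in 15, but Mrps18c was above Mrps15 in 11 only. Mrpl43 shares 31.6%, Mrps18c 22.9% and Mrps24 11.8% of their 50-base exon stretches with other annotated genes, so their counts are less certain.

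Medians over the tested members were 5.74 CPM per kilobase for 44 large subunit symbols and 3.63 for 25 small subunit symbols. At the low end of the tested members stood Mrpl47 with 0.188 ± 0.306 and Mrpl19 with 0.768 ± 0.425 in the large subunit. Mrps25 with 0.245 ± 0.241 and Mrps31 with 0.524 ± 0.919 CPM per kilobase (SD, n = 16) were the lowest of the small subunit. Mrpl47 and Mrps31 had 0 counts in 10 libraries each. Mrps25 overlaps exons of Nr2c2 and Mrpl19 those of Gcfc2, and strand use in counting is not given in the sources used here.

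**Figure D2:**
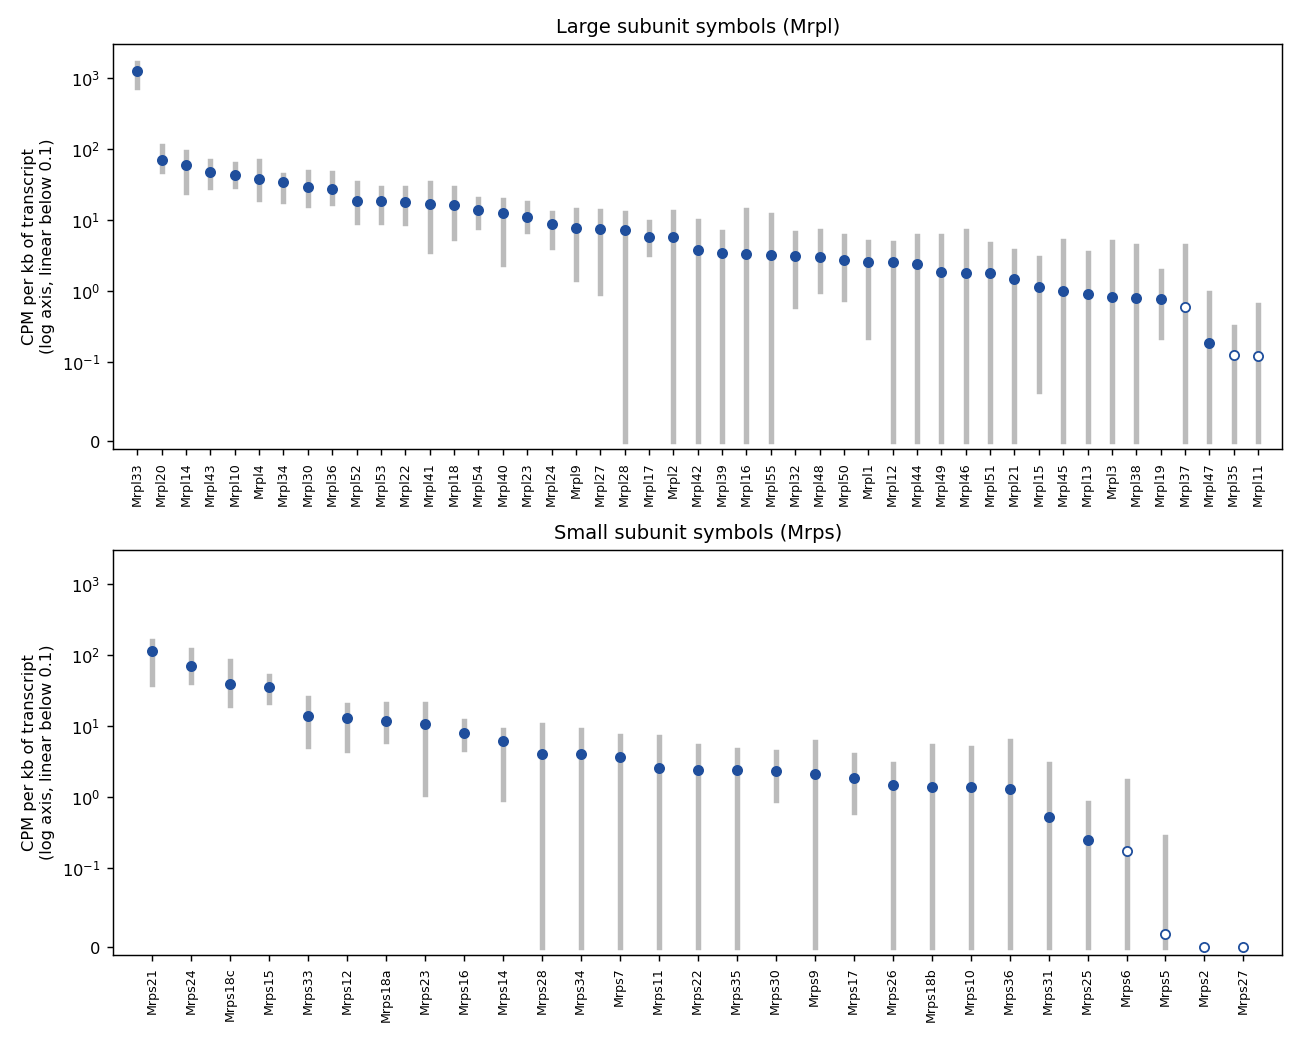
Each point is the mean level of 1 member over 16 libraries in CPM per kilobase of transcript (log axis, linear below 0.1), and the gray bar runs from the lowest to the highest library; open points did not pass the filter on low counts. Mrpl33 stands at 1243, more than all other members, and many bars in the lower part reach 0.

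The 7 members below the filter were Mrpl11, Mrpl35, Mrpl37, Mrps2, Mrps5, Mrps6 and Mrps27. Mrps2, a homolog of a bacterial protein of the small subunit, and Mrps27, an RNA-binding protein of the small subunit, had 0 counts in all 16 libraries. Mrps5 had 8 counts, all in 1 library, and Mrps6 had 12 counts in 3 libraries. Mrpl37 had 72, Mrpl11 53 and Mrpl35 49 counts over all libraries. For Mrps2 and Mrps27, 0 counts over all libraries allow up to 0.0304 CPM (3 counts over the sum of libraries).

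Members at 0 were not always those with low levels in the other libraries of the group. Among tested members there were 31 cases, in 22 members, in which a library had 0 counts where more were predicted. In these the mean CPM of the other libraries of the same group would give 10 or more. The share of such cases over all genes was not computed, so they cannot be read as particular to the members. In stimulated control replicate 1, Mrps35 had 0 counts where 89.9 would be reached. Mrpl49 had 0 counts in unstimulated LTβRΔN replicate 4, where 83.8 would be reached. Mrps35 and Mrpl49 are structural proteins of the small and the large subunit. Over the 19 members with a median of 100 or more counts the median biological coefficient of variation was 0.300, against 0.243 for all 4313 tested genes of that depth. It was 0.557 for 28 members with 20 to under 100 counts (0.557 for all such genes), and 1.18 for 22 members with fewer (1.21 for all). In the highest class members had a median of 184.5 counts per library against 335 for all genes, so the depths there were not alike.

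With stimulation, Mrpl16 was higher in control neutrophils. The mitochondrial homolog of a bacterial protein close to the peptidyl transferase center, it lies on chromosome 19 from 11770391 to 11774960 (+ strand, GRCm38). No other annotated gene overlaps it, and 0 of its 50-base exon stretches occur in another gene. Unstimulated control libraries had 0, 1 and 0 counts, and stimulated ones 13, 69, 144 and 21. These are 0, 0.113 and 0 CPM against 1.76, 16.4, 14.3 and 2.62 CPM, so the groups did not overlap, while the stimulated libraries differed widely among themselves. The summed counts, 247 against 1, gave a ratio of rates of 203 with an exact Poisson 95% interval of 36.1 to 8043, which covers counting error only. Without stimulated replicate 3, which held 144 counts, the ratio was 129 (22.7 to 5147). That library also had the highest sums of platelet and immature neutrophil markers, though its 14.3 CPM of Mrpl16 was below the 16.4 CPM of replicate 2. A relation between these was not tested. The log2 fold change in the edgeR fit was 7.28 (SE 1.63, adjusted p = 0.00828), and the exact two-sided permutation test on log2 CPM gave p = 0.0286, the smallest this design allows. In both genotypes the permutation test was run only because Mrpl16 had passed the edgeR test on the same libraries, so it adds no separate support. The single count of the unstimulated group decides the size of the fold change.

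In LTβRΔN neutrophils Mrpl16 was higher with stimulation as well. The counts were 4, 0, 0 and 0 in unstimulated and 6, 121, 8, 4 and 3 in stimulated libraries, or 0.619, 0, 0 and 0 against 3.74, 14.98, 5.64, 1.80 and 1.16 CPM. The groups did not overlap, and stimulated replicate 2 stood far above the others. The ratio of rates was 48.0 (exact Poisson 95% interval 18.4 to 179), and 14.4 (4.86 to 57.7) without that library. The log2 fold change was 4.80 (SE 1.30, adjusted p = 0.0370), with an exact permutation p of 0.0159 where 0.00794 is the smallest possible. In unstimulated LTβRΔN replicate 2, the library with the lowest total, 0 counts allow up to 2.40 CPM (3 counts), which is above the level in 2 stimulated libraries.

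The call of Mrpl16 depended on which single library was left out. In control neutrophils the adjusted p was 0.0662 without unstimulated replicate 1 and 0.0567 without unstimulated replicate 3. In LTβRΔN neutrophils it was 0.0921, 0.125 and 0.128 without unstimulated replicate 2, 3 or 4, and 0.135 and 0.0539 without stimulated replicate 2 or 3. Without any other single library of the groups compared, Mrpl16 still passed. The adjusted p was then 0.00349 to 0.0291 in control and 0.0145 to 0.0449 in LTβRΔN neutrophils. The sample titles carry the library index S520 for all unstimulated libraries except control replicate 3, and S521 for that one and all stimulated libraries. In LTβRΔN neutrophils treatment and index cannot be told apart. Within S521, the unstimulated control library had 0 counts of Mrpl16, which allows up to 0.421 CPM (3 counts), and the 4 stimulated control libraries were at least 19.7-fold higher together (floor of 3 counts, TMM-scaled totals). With the index as a covariate, the log2 fold changes were 8.75 in control and 6.59 in LTβRΔN neutrophils, and the adjusted p was 0.345 and 0.9999. Only the unstimulated control libraries hold both indexes, with 0 and 1 counts of Mrpl16 in S520 and 0 in S521. The index term of this fit thus rests on 1 count and is carried over to LTβRΔN neutrophils, so these values do not separate index from treatment. The nearest gene, Stx3, lies 162 bases from Mrpl16. It had 11 counts in unstimulated and 55 in stimulated control libraries (log2 fold change 2.53, adjusted p = 0.808 by edgeR). In LTβRΔN neutrophils it had 4 counts in unstimulated and 13 in stimulated libraries.

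**Figure D3:**
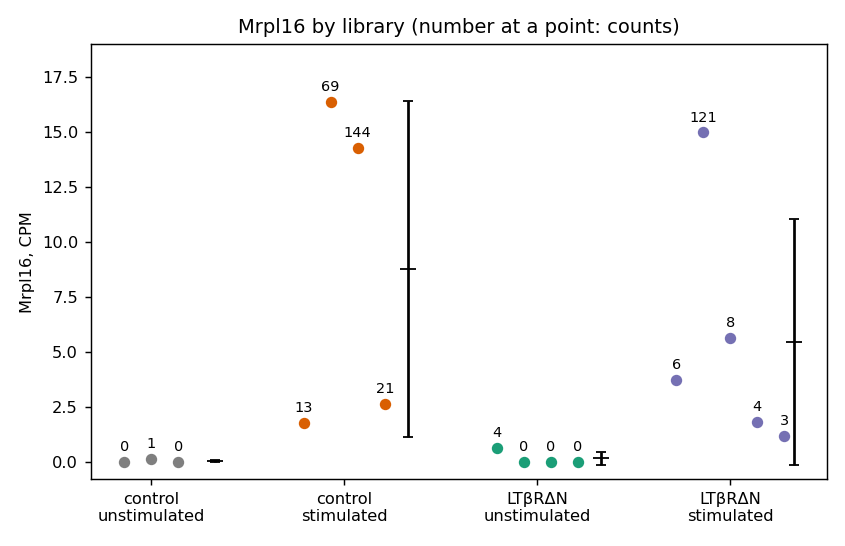
Each point is the level of Mrpl16 in CPM in 1 library, with its count printed above, in the 4 groups on the horizontal axis; bars give the mean and SD. Unstimulated libraries hold 0 to 4 counts, and stimulated ones 3 to 144 counts.

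The other members did not pass the test with stimulation. Of 69 members tested, 1 (1.45%) passed it in control neutrophils, against 3.48% of all 9213 genes tested. In LTβRΔN neutrophils it was again 1 (1.45%), against 3.73% of all genes. At an unadjusted p under 0.05 there were 3 members (4.35%; 11.4% of all genes) in control and 2 members (2.90%; 13% of all genes) in LTβRΔN neutrophils. The CPM of 10 members (14.5%; 12.7% of all genes) did not overlap between the control groups, 4 of them higher with stimulation, against 1 member (1.45%; 7.28% of all genes) in LTβRΔN neutrophils. The median log2 fold change of the members was -0.08 in control and 0.01 in LTβRΔN neutrophils, beside -0.02 and -0.03 for all genes. With members at 0 in a whole group (2 in control, 1 in LTβRΔN) set to a floor of 3 counts over that group, both medians were the same. These members stayed on the same side of the median, so the medians could not move.

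Among members that did not pass, Mrps15 had the next smallest p of those higher in stimulated control libraries. It is a bacterial-like small subunit protein with 188 to 403 counts in unstimulated and 149 to 366 in stimulated libraries. Its levels were 30.7, 22.1 and 26.4 CPM in unstimulated and 39.6, 35.3, 36.3 and 32.96 CPM in stimulated libraries, which did not overlap (log2 fold change 0.45, SE 0.27, adjusted p = 0.617). Mrpl18 had a log2 fold change of 0.58 (SE 0.42, adjusted p = 0.729). Mrps36, which despite its symbol is a component of the 2-oxoglutarate dehydrogenase complex and not of the ribosome, had 7, 14 and 5 counts in unstimulated and 0 in all 4 stimulated control libraries. Its level was at least 8.85-fold lower with a floor of 3 counts over the stimulated group (adjusted p = 0.167), and 17.3% of its 50-base exon stretches are shared, among others with its pseudogenes. Mrps31, a small subunit protein found only in mitochondria, had 0, 22 and 9 counts against 0 in all 4 stimulated libraries (adjusted p = 0.294). Mrpl51, another protein found only in mitochondria, was at 6.62, 11.1 and 13.3 CPM in unstimulated and 0.541, 3.32, 3.47 and 4.99 CPM in stimulated control libraries. These did not overlap (log2 fold change -1.74, SE 0.85, adjusted p = 0.451).

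In LTβRΔN neutrophils Mrpl51 had a log2 fold change of -1.47 (SE 0.78, adjusted p = 0.459). Its levels there overlapped, at 8.66, 6.40, 15.8 and 6.81 CPM in unstimulated and 10.6, 3.34, 0, 2.25 and 1.16 CPM in stimulated libraries. Mrpl47, of bacterial descent, had 0 counts in the 4 unstimulated libraries and 0, 0, 0, 7 and 3 in the stimulated ones (adjusted p = 0.326). Of its exon bases, 24.2% are shared with Ndufb5 and Actl6a on the opposite strand. Mrpl3 ranged from 0.0851 to 2.94 CPM in unstimulated and from 0 to 19.3 CPM in stimulated LTβRΔN libraries (adjusted p = 0.503). Mrpl40 had a log2 fold change of -0.89 (SE 0.46, adjusted p = 0.442) and Mrps30 of -0.94 (SE 0.53, adjusted p = 0.514). Mrps30 sits in the large subunit despite its symbol.

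Between genotypes no member passed the test. Among unstimulated libraries 0 of 69 members passed it, against 0.0217% of all genes, and 1 member (1.45%; 2.80% of all genes) had an unadjusted p under 0.05. By DESeq2 no member passed either, against 4 of 9213 genes, and 0 had an unadjusted p under 0.05. The share of all genes at an unadjusted p under 0.05 was not computed for DESeq2. The CPM of 5 members (7.25%; 5.71% of all genes) did not overlap, 2 of them higher in LTβRΔN. Among stimulated libraries 0 members passed, against 0.0217% of all genes, and 4 (5.80%; 6.41% of all genes) had an unadjusted p under 0.05. By DESeq2 0 members passed there, against 14 of 9213 genes, and 4 had an unadjusted p under 0.05, again without a share of all genes. The CPM of 0 members did not overlap there, against 1.31% of all genes. Median log2 fold changes of the members were 0.03 in unstimulated and 0.10 in stimulated libraries, beside -0.01 in both for all genes.

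Mrpl16 itself had 4 counts in unstimulated LTβRΔN and 1 in unstimulated control libraries. With stimulation it had 142 and 247 counts, a log2 fold change of LTβRΔN over control of -0.64 (SE 0.97, 95% interval -2.66 to 1.38, adjusted p = 0.974). Mrpl47 had 4, 11 and 12 counts in unstimulated control libraries and 0 in the 4 of LTβRΔN, which was at least 7.39-fold lower (floor of 3 counts over the group, adjusted p = 1). Mrps18b, a mitochondria-specific paralog of Mrps18c, had 52, 49 and 25 counts in unstimulated control and 8, 2, 0 and 0 in unstimulated LTβRΔN libraries (log2 fold change -2.76, SE 1.82, adjusted p = 1). An antisense gene covers 30.5% of its exon bases. Mrps18a, the third paralog, whose protein sits in the large subunit, was at 6.57 to 14.6 CPM in unstimulated control and 6.56 to 15.3 CPM in unstimulated LTβRΔN libraries, with full overlap. Mrpl2, a bacterial-like protein near the peptidyl transferase center, had a log2 fold change of 1.19 (SE 0.91), Mrps15 of 0.36 (SE 0.27) and Mrpl30 of -0.45 (SE 0.31) between unstimulated genotypes, with adjusted p = 1 for each.

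Among stimulated libraries the members with the smallest p were those with few counts. Mrps36 had 3, 0, 1, 2 and 11 counts in LTβRΔN and 0 in the 4 control libraries, which is at least 10.6-fold higher (floor of 3 counts over the control group, adjusted p = 0.636). Mrps31 had 7, 0, 0, 0 and 1 against 0 in all (adjusted p = 0.713). Mrpl38 had 0, 0, 0, 6 and 16 counts in LTβRΔN and 0, 0, 4 and 0 in control libraries (adjusted p = 0.755). Mrpl13 had 2 counts in 1 of 5 LTβRΔN libraries and 10, 18, 27 and 6 counts in control libraries (log2 fold change -3.41, SE 1.62, adjusted p = 0.773). Members with more counts in this group were Mrpl10, a protein at the base of the stalk of the large subunit, with a log2 fold change of -0.38 (SE 0.19, adjusted p = 0.773), and Mrpl43 with -0.39 (SE 0.20, adjusted p = 0.785). Of the 50-base exon stretches of Mrpl10, 12.3% are shared with other genes. Mrpl12, whose protein forms that stalk and is also known to bind mitochondrial RNA polymerase, was at 2.28 to 4.32 CPM in control and 0 to 4.36 CPM in LTβRΔN libraries.

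The effect of stimulation did not differ between genotypes for any member at an adjusted p under 0.05 by edgeR or DESeq2, as for 0% of all genes. At an unadjusted p under 0.05 there were 2 members (2.90%, beside 3.71% of all genes) by edgeR. By DESeq2 there was 1, for which the share of all genes was not computed. For Mrpl16 the difference was -2.48 on the log2 scale (SE 1.83, 95% interval -6.27 to 1.31, adjusted p = 0.9999). Without unstimulated LTβRΔN replicate 1, which holds all 4 counts of its group, it turned to 0.82.

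How much a fold change could have been seen depended on the counts. In control neutrophils the median SE of the log2 fold change with stimulation was 0.33 for the 19 members with a median of 100 or more counts, 0.62 for 28 with 20 to under 100, and 1.45 for 22 with fewer. The 95% interval lay within 2-fold either way for 12 of these 19 members and for 0 of the other 50. In LTβRΔN neutrophils it did so for 16 of 19 and 2 of the other 50. Of all tested genes with a median of 100 or more counts, it did so for 68.7% in control and 74.1% in LTβRΔN neutrophils. For all genes with 20 to under 100 counts the shares were 2.15% and 5.83%, and for those with fewer no share was available. Mrpl33, with the highest counts, had log2 fold changes with stimulation of 0.07 (95% interval -0.31 to 0.44) in control and 0.03 (-0.30 to 0.36) in LTβRΔN neutrophils. For Mrps24, a bacterial-like protein of the small subunit, they were 0.01 (-0.49 to 0.51) and 0.07 (-0.38 to 0.52), and for Mrps21 -0.04 (-0.65 to 0.57) and 0.09 (-0.46 to 0.64).

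**Figure D4:**
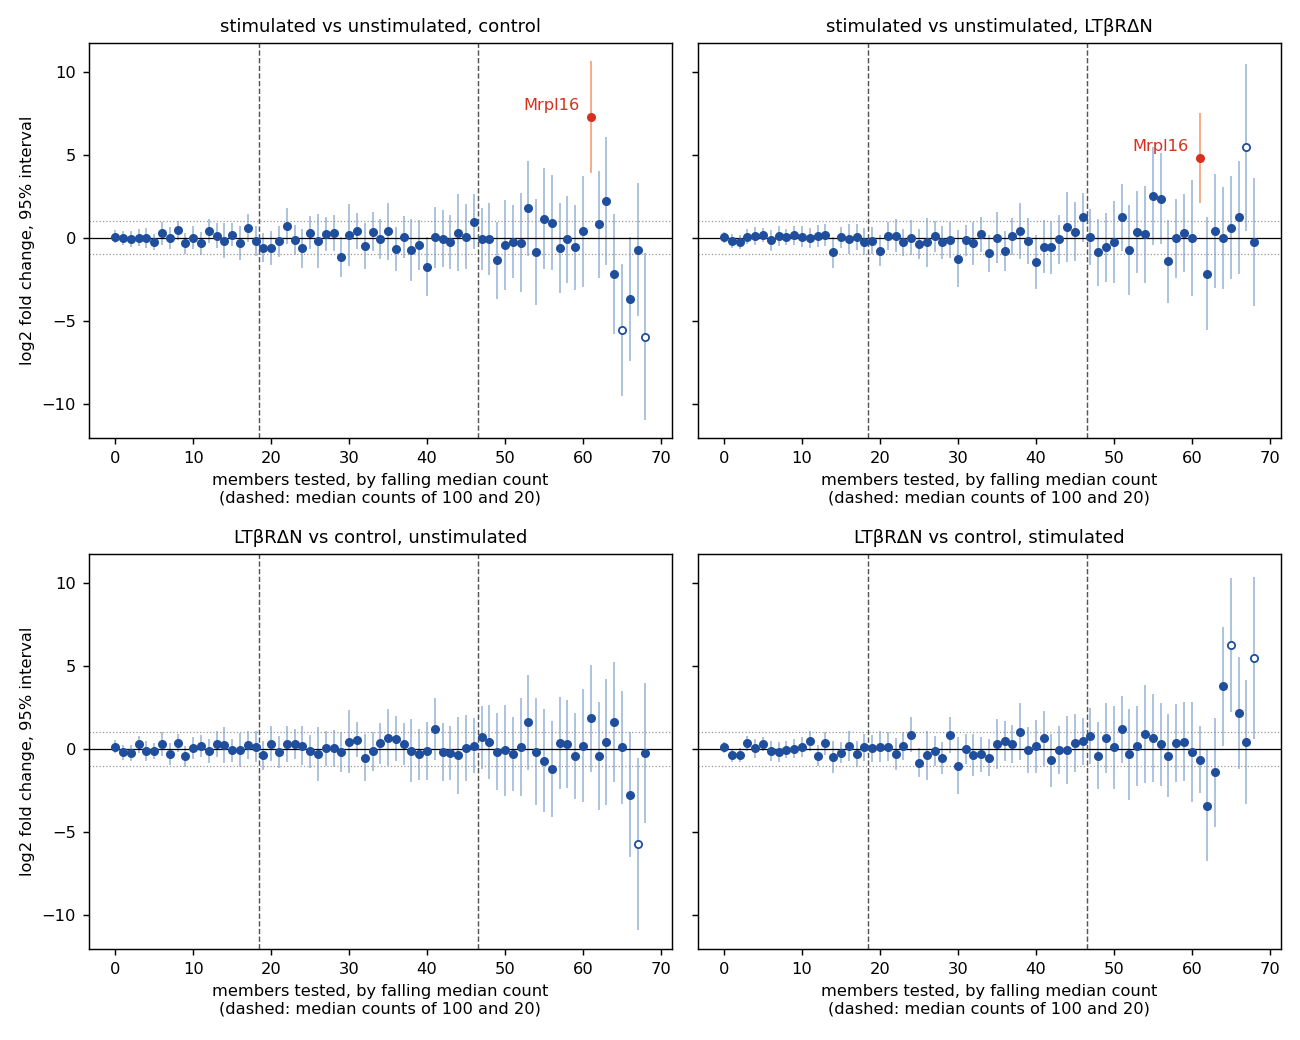
Each point is the log2 fold change of 1 of 69 tested members with its 95% interval, in 4 comparisons, ordered from left to right by falling median count, with dashed lines at medians of 100 and 20 counts and dotted lines at a 2-fold change; open points have 0 counts in a whole group and their fitted size depends on the prior count. Mrpl16 (red) passed the test in both upper panels, and the intervals widen to the right.

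The summed counts of all members were 0.161% to 0.179% of the counts of unstimulated and 0.137% to 0.149% of those of stimulated control libraries, without overlap. In LTβRΔN libraries they were 0.136% to 0.185% and 0.122% to 0.167%, with overlap. After scaling by TMM factors, the sums were 1533 ± 40.4 (SD, n = 3) and 1534 ± 73.9 (SD, n = 4) CPM in unstimulated and stimulated control libraries. They were 1594 ± 276 (SD, n = 4) and 1579 ± 200 (SD, n = 5) CPM in LTβRΔN libraries, so each difference was smaller than the spread. In control neutrophils the sum was lower with stimulation on library totals, and level after TMM scaling. Without TMM factors the median log2 fold change of all genes with stimulation moved to -0.27 in control and -0.21 in LTβRΔN neutrophils, and that of the members to -0.31 and -0.19. In bulk samples, fewer cells of a type and less RNA per cell cannot be told apart.

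**Figure D5:**
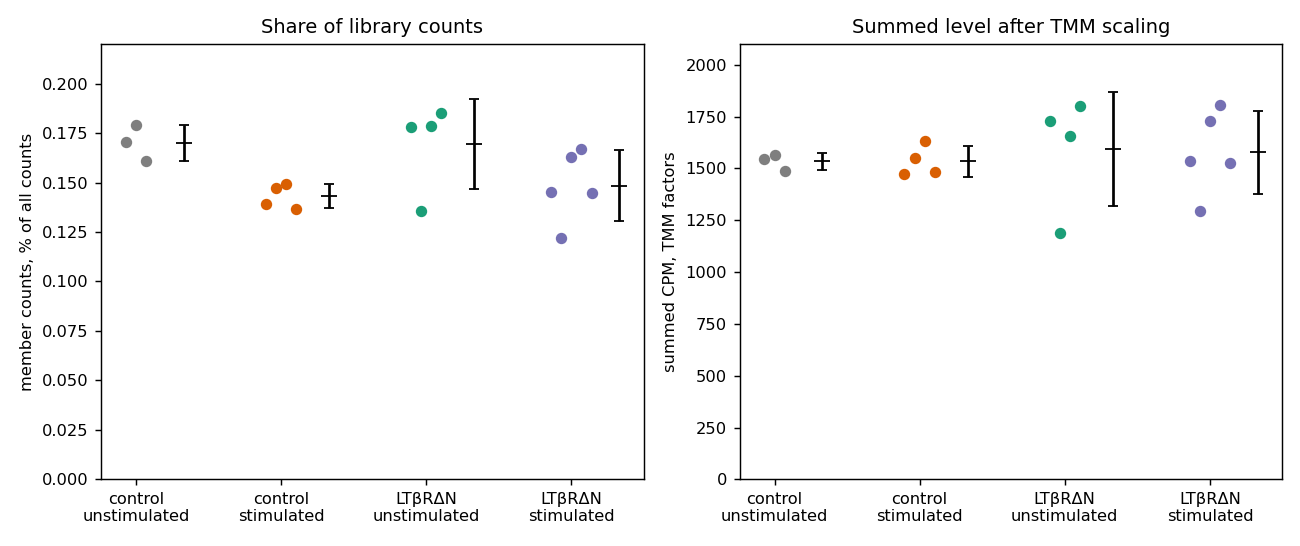
The left panel gives the counts of all 76 members as a percentage of all counts of each library, and the right panel their summed CPM after scaling by TMM factors; points are libraries, and bars give the mean and SD of each group. The control groups are apart at the left, at 0.161% or more and 0.149% or less, and overlap at the right.

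Members were also grouped by descent. In control neutrophils 1 of 28 tested bacterial-like large subunit members was higher with stimulation, which is Mrpl16, and 0 of 16 mitochondria-specific ones (3.48% of all genes in either direction), with median log2 fold changes of -0.02 and -0.25. The corresponding small subunit groups had 0 of 13 and 0 of 9, with medians of 0.06 and -0.20. In LTβRΔN neutrophils the medians were 0.03 and -0.27 in the large and 0.09 and -0.0016 in the small subunit, and Mrpl16 was again the 1 that passed (3.73% of all genes).

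The rest of the mitochondrial translation and gene expression machinery was described by 5 lists of 74 genes, of which 69 were in the table and 49 were tested. These are 9 tested translation factors, 10 tRNA synthetases, 15 assembly and rRNA modification factors, 6 other ribosomal proteins such as Dap3, and 9 factors of mitochondrial DNA transcription and RNA processing. In control neutrophils 0 of 49 passed the test upward and 1 downward with stimulation, against 3.48% of all genes in either direction. This was Ddx28, an RNA helicase of large subunit assembly, with 109, 93 and 131 counts in unstimulated and 0, 4, 19 and 0 counts in stimulated libraries. The groups did not overlap (8.29, 10.5 and 18.4 against 0, 0.949, 1.88 and 0 CPM), and the log2 fold change was -4.08 (SE 1.13, adjusted p = 0.0454). In LTβRΔN neutrophils, where 0 of 49 passed by edgeR (3.73% of all genes) and 2 had an unadjusted p under 0.05 (13% of all genes), Ddx28 was at 13.3, 8.00, 11.1 and 8.60 CPM without and at 0.623, 0, 2.11, 0.898 and 3.87 CPM with stimulation, again without overlap (log2 fold change -2.83, SE 1.01, adjusted p = 0.161). Between genotypes 0 of 49 passed in unstimulated and 0 of 49 in stimulated libraries by edgeR (0.0217% of all genes in each), with 1 and 4 at an unadjusted p under 0.05 (2.80% and 6.41% of all genes). Median log2 fold changes of the 49 genes were -0.15 and -0.14 with stimulation in control and LTβRΔN neutrophils, and 0.15 and 0.06 between genotypes without and with stimulation.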

How the data were processed

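The table that the authors deposited holds whole-number counts by gene symbol for each library, not normalized. The submitters' processing notes list Bowtie 1.0.0, TopHat 1.4.1, HTSeq 0.7.1 and mm10. Their options, annotation and strand setting are not given in the sources used here. Libraries were grouped by genotype and treatment labels. One edgeR 4.0.16 model (R 4.3.3) took the counts of all 16 libraries (filterByExpr at min.count 10 and min.total.count 15, TMM factors, 1 coefficient per group, quasi-likelihood test). Benjamini-Hochberg adjustment was made over all 9213 genes that passed the filter, and an adjusted p under 0.05 counted as passing. The SE of a log2 fold change was derived as its absolute value over the square root of the F statistic. The 95% intervals of log2 fold changes use this SE with a t quantile. For groups at or near 0 counts the fold change depends on the prior count, so SE and interval are rough there. The test was first tested on simulated data. CPM uses TMM-scaled totals, and log2 CPM a prior count of 2. Rate ratios are on library totals, with exact Poisson intervals at 95% that cover counting error only. Bounds for groups at 0 use a floor of 3 counts and TMM-scaled totals.

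Members and gene lists were chosen with earlier results of these data known. Named are members that passed the test, the 3 with the smallest p per direction in each comparison of 2 groups, the 4 highest and 2 lowest levels per length of each subunit, members below the filter, Mrps18a, Mrps18b, Mrps18c, Mrps30, Mrps36 and Mrpl12, and listed pathway genes that passed. Mrps35 and Mrpl49 were named for their zeros after their values were seen, as was Stx3 for its place. Ltbr, Cish, Socs3 and Nfkbia served as checks of the labels. Gene places, transcript lengths and shared stretches of 50 bases were taken from GENCODE M21 on GRCm38, which matched all 76 members and 89.7% of symbols. Promoters were taken from RefSeq. Alternatives were other scalings, both filters, DESeq2 1.42.0, the library index as a covariate, a replicate block, fits of the compared groups only and each library left out. The level by all annotated exon lengths was chosen after seeing the data.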

Additional observations from a re-analysis of the deposited data

Results flagged for a closer look

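Values of single libraries that lay far from the others of their group, by Dixon's test at its 95% critical value, were found in 10 of 84 groups of 4 or 5 values examined. They lay in 7 libraries. For independent normal values about 1 in 20, or 4.2, would be found. Here many values are 0 or low, and members were named partly for their values, so 10 cannot be read as an excess over 4.2. Unstimulated LTβRΔN replicate 2, the library with the lowest total, had 0.136% of its counts on members, where the next lowest had 0.178%. Mrpl16 was at 0.619 CPM in unstimulated LTβRΔN replicate 1 and at 0 in the other 3. In stimulated LTβRΔN replicate 1, Mrpl13 was at 1.25 CPM with 0 in the other 4, and Mrps31 at 4.36 CPM with 0.387 as the next highest. Among stimulated control libraries, replicate 1 was lowest for Mrpl14 (20.8 CPM, next 39.7) and highest for Mrpl47 (2.57 CPM, 0 in the others). Replicate 2 was lowest for Mrpl2 (2.14 CPM, next 4.46), and replicate 4 lowest for Mrpl3 (0 CPM, next 4.66). Replicate 3 was the only one with counts of Mrpl38 (0.396 CPM) and Mrps18b (1.19 CPM). Mrpl38, Mrpl47, Mrps18b and Mrpl13 rest on few counts.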

How the results depend on the processing

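With stimulation, 1 member passed the test in each genotype, which was Mrpl16, and it also passed with DESeq2 size factors, upper-quartile scaling, library totals only, every gene of at least 1 count and DESeq2's Wald test (adjusted p = 5.4e-05 in control, 0.0019 in LTβRΔN). The number was 0 in both genotypes with at least 10 counts in every library, where Mrpl16 was not tested, and 0 in both with the library index as a covariate (log2 fold changes 8.75 and 6.59, adjusted p = 0.345 and 0.9999). In LTβRΔN it was 0 with only the groups compared, where Mrpl16 was not tested. Leaving out 1 library gave 0 to 1 in each genotype, with Mrpl16 between 6.73 and 8.71 in control and 3.92 and 8.10 in LTβRΔN on the log2 scale. The median of members with stimulation in control moved to -0.31 with library totals only. Between unstimulated genotypes the log2 fold change of Mrpl16 turned from 1.84 to -1.47 without LTβRΔN replicate 1, and lay between -1.47 and 3.28 with each library left out in turn. Its interaction turned from -2.48 to 0.82 without the same library. By all annotated exon lengths, 3 of the 4 highest large subunit members and 4 of the 4 of the small subunit were shared with the order reported, but Mrpl33 moved from 1243 to 81.1 CPM per kilobase and Mrpl20 from place 2 to 6 of the large subunit.

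The column names carry a number that 7 pairs of libraries share. With it as a replicate block, 1 member passed in control and 1 in LTβRΔN neutrophils, Mrpl16 in both (adjusted p = 0.0199 and 0.0403), and 0 in the interaction. Deviations of same-numbered libraries correlated at r of 0.021 to 0.069, with 0 of 7 pairs over 0.1, and those of other pairs at -0.049 to 0.030. Of the 7 unstimulated libraries, 6 correlated best with their own number. What the number marks is not stated, and a pairing of libraries by animal is possible. The main tests and the permutation tests treated all libraries as independent. The numbers are nested in genotype, and no blocked comparison of genotypes was possible.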
